A study of Mus musculus with 6 samples.

Results

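Of the 12508 YBX1 peaks deposited in 3 lists, 1605 had an identical copy elsewhere in the genome, meaning that at least 1 other peak of the same list had the same length, the same distance from its start to its summit and the same pileup. The pileup is the number of extended tags stacked over the summit, and the peaks were taken where it lay from 80 to under 240. By list, 979 of 7053, 252 of 2628 and 374 of 2827 peaks qualified, and they are called copy peaks here. Peaks equal in the 3 values were grouped into copy sets, 296 in list 1, 83 in list 2 and 109 in list 3. The 1605 peaks thus carried 488 distinct outlines. The members were thus chosen by their measured length, summit offset and pileup, and these values and counts are given as a description.

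YBX1 belongs to the Y-box proteins, which bind both DNA and RNA through a conserved cold shock domain. Chromatin bound to it was immunoprecipitated and sequenced from untreated BaF3 cells, a mouse line derived from pro-B cells, which carry JAK2 V617F, a constantly active form of the kinase that transmits cytokine signals. There were 3 YBX1 immunoprecipitates and 3 inputs, which are libraries of chromatin without immunoprecipitation, and the inputs came from the same mutant cells. Each list held the peaks of 1 immunoprecipitate called against an input, placed on GRCm38, and was matched to its replicate by the number in the name of the list. The alignments named inside the lists carry other numbers that the labels do not explain, so the match of list to replicate rests on that name alone. Nothing in the labels tells if the replicates were grown apart, so the spread between lists may be technical, and neither a control antibody nor cells lacking YBX1 are named.

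A mammalian genome holds many stretches that occur more than once. They include mobile elements scattered over all chromosomes, tandem arrays, and large duplicated or inverted blocks that can carry whole genes, with the Y chromosome of the mouse made largely of such blocks. A short read from a stretch with perfect copies fits all of them equally well, so where an aligner puts such reads sets the profile seen at each copy. The placement of these reads is not given in the sources used here. Which class of repeat each copy set belongs to was not analysed here. A value printed for a copy set is therefore a value of the set, and its members are not replicates of each other.

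Depth after removal of repeated positions was 67.0 to 69.7 M tags in the immunoprecipitates and 67.0 to 87.6 M in the inputs. Within the pileup range lay 4849, 1666 and 2157 peaks, and copy peaks made up 20.2%, 15.1% and 17.3% of them. The remaining 3870, 1414 and 1783 peaks of the range are called other peaks. Over all peaks, whatever their pileup, 24%, 24.4% and 19.4% had an identical copy. At the upper limit the highest copy peaks had pileups of 239, 239 and 239.28, with folds from 1.46 to 2.20, from 2.03 to 2.23 and from 1.70 to 2.15. The nearest identical copies beyond it had 241, 240 and 240.24, where folds spanned 1.33 to 1.93, were 1.43 throughout, and spanned 1.42 to 1.63. The fold is the authors' own ratio of pileup to local input with 1 added to each. At the lower end the copy peaks began at 97, 110 and 82.64, with folds of 1.82 and 3.53 in the list 1 sets and of 1.61 and 1.99 in lists 2 and 3. The nearest copies below the range had pileups of 77, 52 and 76.88. Copies outside the range numbered 42, 20 and 18 below it and 671, 368 and 157 above it.

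Most copy sets were pairs, and a few were large. Sets of 2 made up 187 of 296, 54 of 83 and 67 of 109 sets, or 63.2%, 65.1% and 61.5%. Sets of 10 or more were rare, 11, 3 and 6 in the 3 lists, but held 226, 51 and 94 peaks, or 23.1%, 20.2% and 25.1% of the copy peaks. The plot of set sizes shows the same fall in every list, from a few sets of 10 to 64 peaks to a long row of pairs.

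**Figure D1:**
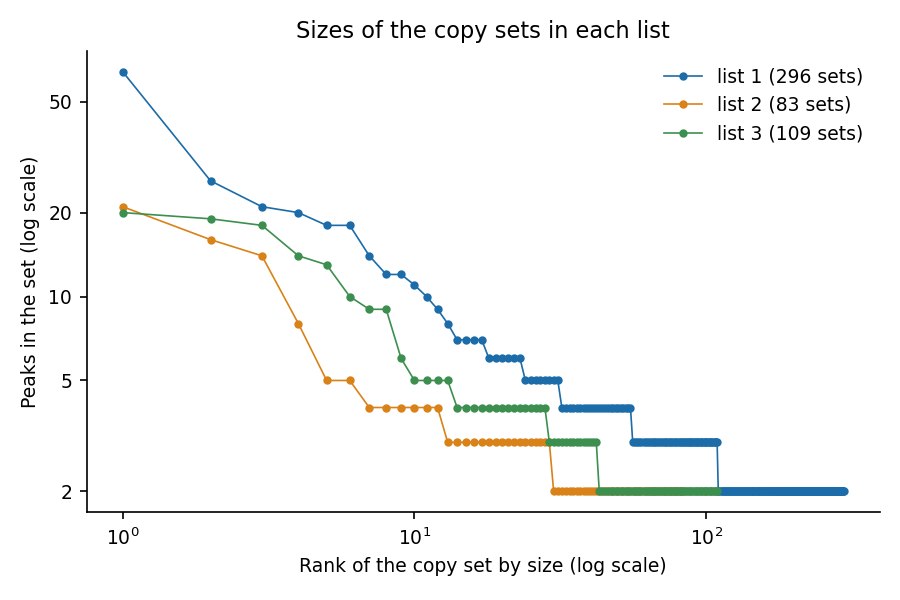
Number of peaks in each copy set against the rank of the set by size, both on log scales, with 1 line per list. The largest set holds 64 peaks in list 1, 21 in list 2 and 20 in list 3, and pairs form the flat end of each line.

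The largest set of list 1 had 64 peaks on 20 chromosomes, each 175 bp long with its summit 117 bp from the start and a pileup of 202. All 64 also had the same fold, 2.91, and the same −log10 q of 32.9. Of these peaks 18 lay inside protein-coding genes, among them Adam22 and Lsamp, which encode neuronal cell adhesion proteins, Kcnd2, a potassium channel subunit, and Lrp1b, a large receptor of the LDL receptor family. None of the 64 places had a peak in list 2 or list 3. The next sets of list 1 held 26, 21, 20 and 18 peaks with folds of 1.52, 1.73, 1.59 and 1.32, and none of their places had a peak in another list either. The set of 26 spread over 14 chromosomes, and the set of 20 over 9.

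In list 2 the largest set had 21 peaks of 295 bp with a pileup of 220, and the next had 16 peaks of 294 bp with the same pileup. Both had a fold of 1.34, and none of their places appeared in the other lists. Their summits lay 171 bp and 121 bp from the start, which is the same outline read from opposite ends: the second has 172 bp to the right of its summit. Among sets of 3 or more whose outline is not symmetric, 18 of 107, 4 of 29 and 2 of 42 had such a mirrored partner in their own list, with the length within 2 bp, the offset within 3 bp and the pileup within 5%. In list 1, 20 peaks with the summit at 73 bp and 14 peaks with it at 182 bp, all 255 bp long, formed such a pair. Their pileups were 187 and 189 and their folds 1.59 and 1.51. No mirrored pair of list 1 had equal folds, nor did the other pair of list 2, whereas the pair of list 3 did. How many mirrored partners these tolerances give by chance was not estimated.

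The next set of list 2, with 14 peaks on 9 chromosomes, was found whole in all 3 lists. It lay inside Hhat, the enzyme that attaches palmitate to Hedgehog ligands, Slit3, a secreted guidance ligand, and Lrfn5 and Il1rapl1, which encode synaptic adhesion proteins. Nkain3, which encodes a membrane protein that interacts with the sodium pump, and the zinc finger gene Zfp277 held members as well. In all, 7 places were inside genes and 7 outside. Those outside included places nearest to Dmrt2, Celf2, Cypt12, Gimd1, G6pd2 and Klhl4, at distances from 96.1 kb (Klhl4) to 1258 kb (G6pd2). In Hhat the peak ran over chr1:192571857-192572201 in list 1, chr1:192571856-192572199 in list 2 and chr1:192571850-192572203 in list 3. In Slit3 it ran over chr11:35426685-35427029, chr11:35426684-35427027 and chr11:35426678-35427031. The ends thus moved from list to list by the same few bases at both places.

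List 1 gave a pileup of 148 and a fold of 1.90 at all 14 places. List 2 gave 152 and 1.88 at all 14. List 3 gave 159.52 and 2.01 at 13 places, and 160.48 and 2.02 near Klhl4. No pileup of 1 list fell within the range of another, so the lists differed by more than the places did. The rule joined 12, 14 and 13 of these peaks into 1 set per list: Slit3 and the place near G6pd2 had summits 1 bp to the left in list 1 and formed a pair of their own there. At 6 of the 12 places of the list 1 set a further list 1 peak stood exactly 5527 bp away, with a pileup of 241, above the range.

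**Figure D2:**
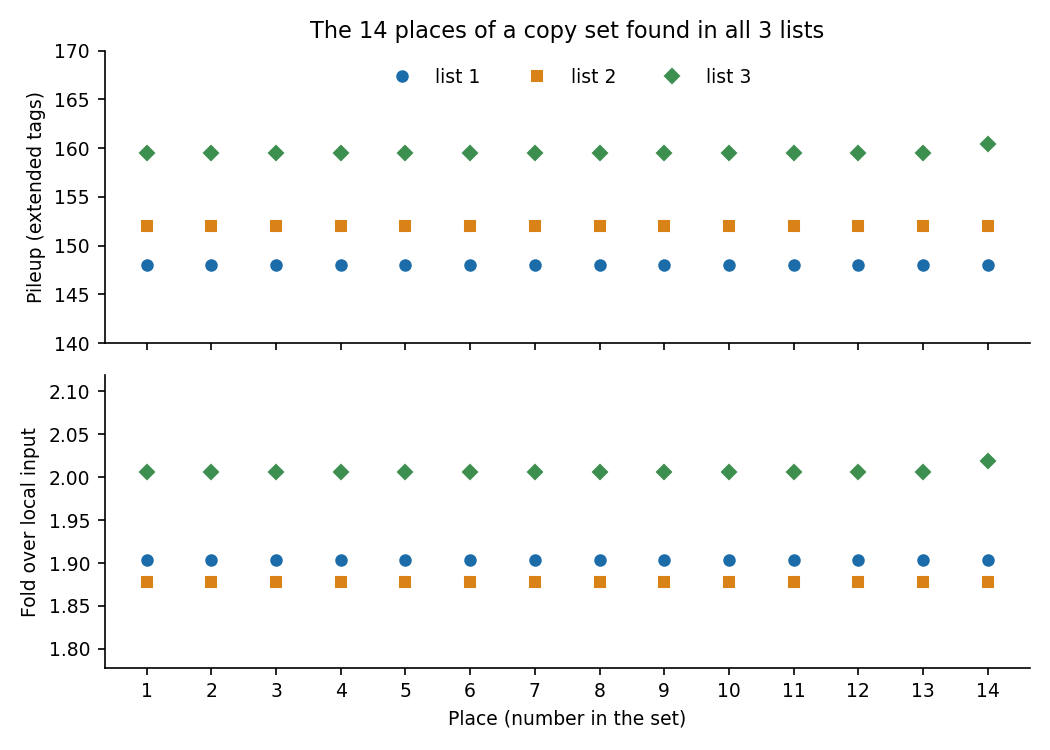
Pileup in extended tags (top) and fold over local input (bottom) at the 14 places of 1 copy set, numbered along the horizontal axis, with 1 colour per list. Each list forms a flat row, and the last place, near Klhl4, in list 3 is the 1 departure. Both axes are cut to the range of the values.

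In list 3, 3 of the 4 largest sets lay just under the upper limit. Sets of 20, 18 and 14 peaks shared a pileup of 239.28 and a fold of 2.15 and differed in length alone, from 347 to 350 bp. Together they covered 52 places on 19 chromosomes, 8 of them inside genes, such as Dcc, the netrin receptor, Fmn1, an actin nucleator, and Dlg1, a scaffold of cell polarity. All 52 places had a peak in both other lists. There every one had a pileup of 258 and a fold of 2.43 in list 1 and a pileup of 255 and a fold of 2.13 in list 2, so in those lists the same places were outside the range. The peaks were 364 to 366 bp long in list 1 and 334 to 335 bp in list 2. A list 1 peak with a pileup of 251 stood 593 bp from the summit at 19 of the 52 places, and a list 2 peak with a pileup of 269 stood 1498 bp away at 19. The other sets of 10 or more in list 3 were 1 of 19 peaks with a fold of 2.08, absent from both other lists, 1 of 13, which is the set of Hhat and Slit3, and 1 of 10 with a pileup of 228.71 and a fold of 1.56, found whole in both other lists.

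The first question put to the sets was whether the background was the same at all copies. The fold contains the local input, which is not 1 of the 3 rule values. The length is not independent of it, since peaks were called against input at a q threshold. Selection by equal length can thus enter the shares below, which are a description. Of the copy peaks, 91.3%, 95.6% and 97.3% shared the fold, to all 5 decimals deposited, with another member of their set, a mean of 94.8% ± 3.10 (SD, n = 3 lists). Sets with a single fold throughout numbered 249 of 296, 77 of 83 and 103 of 109. In the 47, 6 and 6 sets with several folds, the ratio of the highest to the lowest had a median of 1.02, 1.03 and 1.03 and reached 1.55 in list 1 and 1.10 in lists 2 and 3. Pairs with an equal pileup and only 1 more of the rule values equal gave the comparison, since the fold is computed from the pileup. Those with equal length and pileup but another offset shared a fold in 15.2%, 50% and 35.9% of cases, and those with equal offset and pileup but another length in 55.1%, 85% and 85.9%. For pairs equal in all 3 values the share was 97.7%, 98.7% and 98.3%. Every pair within a set was counted, so the few large sets weigh most. Counted by set, 84.1%, 92.8% and 94.5% had a single fold.

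Equal pileup and fold therefore reached further than the copy sets. With length and offset left free, 2814, 738 and 1093 peaks of the range, or 58.0%, 44.3% and 50.7%, shared both pileup and fold with another peak of their list. Among other peaks, which have no identical copy, these were 48.4%, 35.0% and 40.5%. The share that unrelated peaks of equal pileup would reach was not estimated, so these families need not be copies. The family of the set of 64 grew to 71 peaks, of which 69 had exactly 57 bp to the right of the summit. In list 1 a family of 38 peaks with a pileup of 199 and a fold of 1.96 had 31 different lengths, from 253 to 516 bp, but 31 of its peaks had the summit 115 bp from the start. In the family of 71, by contrast, 66 peaks also shared the left offset, and a list 2 family of 14 had 1 length.

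The second question was whether the sets were found again in the other replicates, which the rule for a list did not use. A peak counted as found when it overlapped a peak of another list by at least 1 bp. Of the copy peaks, 31.1% (95% Wilson interval 28.2 to 34.0), 75.4% (69.7 to 80.3) and 82.9% (78.7 to 86.4) were found. Of the other peaks, 46.6%, 84.9% and 83.8% were, and of all peaks 42.2%, 80.6% and 81.6%. The intervals cover counting error and treat peaks as independent, which copies are not. The difference was −8.64 percentage points ± 7.35 (SD, n = 3), lower in 3 of 3 lists, with a two-sided exact permutation p of 0.25 and an adjusted p of 0.375. The smallest p that 3 lists allow is 0.25, so no difference between copy and other peaks could pass, and the adjustment covers 6 such differences. With each set counted once, by its first member, the difference was −2.01 points ± 6.43, with an exact permutation p of 1, and copy peaks were found more often in lists 2 (86.7%) and 3 (85.3%). Without list 1 it was −4.65 points. With no limits on the pileup the direction turned, to 2.77 points.

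Set size went with the share found in list 1. There 12 of 226 peaks in sets of 10 or more were found, 5.31%, against 292 of 753 in smaller sets, 38.8%. In list 2 it was 14 of 51, 27.5%, against 176 of 201, 87.6%. In list 3 the shares were 79.8% and 83.9%, with the 52 places near the upper limit among those found. This split by size was made after the values were seen, and it rests on 11, 3 and 6 large sets. Copy peaks in both other lists made up 13.4%, 45.6% and 48.7%, beside 21.4%, 55.9% and 46.8% of other peaks and 18.3%, 49.1% and 45.6% of all peaks.

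Nearly all sets were found either whole or not at all. Of the 296 sets of list 1, 64 had every member in list 2, 224 had none and 8 had a part. In list 3, 83 of them had every member, 201 none and 12 a part. Of the 83 sets of list 2, all members were in list 1 for 69, none for 14 and a part for 0. In list 3 these numbers were 47, 34 and 2. For the 109 sets of list 3, 88 were whole in list 1 and 49 in list 2, with a part found for 1 set in each. Over the 6 searches, 95.9% to 100% of the sets were whole or absent. Restricted to sets of 3 or more, a part was found for at most 4 of 109 sets in any search.

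**Figure D3:**
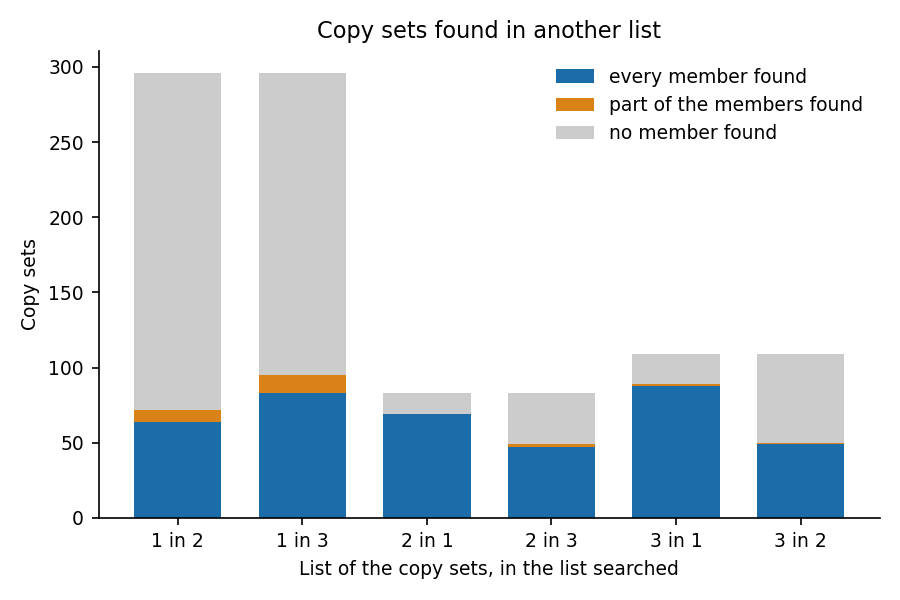
Stacked bars of the number of copy sets with every member, part of the members or no member overlapping a peak of the list searched, for the 6 ordered pairs of lists. The part-found band is the thinnest in every bar, from 0 to 12 sets.

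Where a copy pair was found in another list, its peaks were usually copies there as well. Neighbouring members of a set gave 807 pairs, over the 6 searches, in which both peaks were found. In 544 of them, 67.4%, the peaks found were again equal to each other in length, offset and pileup. The mean over the lists of origin was 67.1% ± 3.58 (SD, n = 3). Neighbouring other peaks were equal in 2 of 4012 pairs. The shift of the summit from one list to the next was the same at both copies, within 1 bp, in 791 of the 807 pairs, or 98.0%. Among other peaks it was the same in 15.1% to 19.9% of pairs. The pairs of other peaks were neighbours on the genome and, by the rule, unequal in their own list. Both contrasts are thus a description that selection enters, and the same places can count in both directions of a search. Sets with every member found in both other lists numbered 46, 44 and 45, and in 23, 18 and 19 of them all members were again equal to each other in both.

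**Figure D4:**
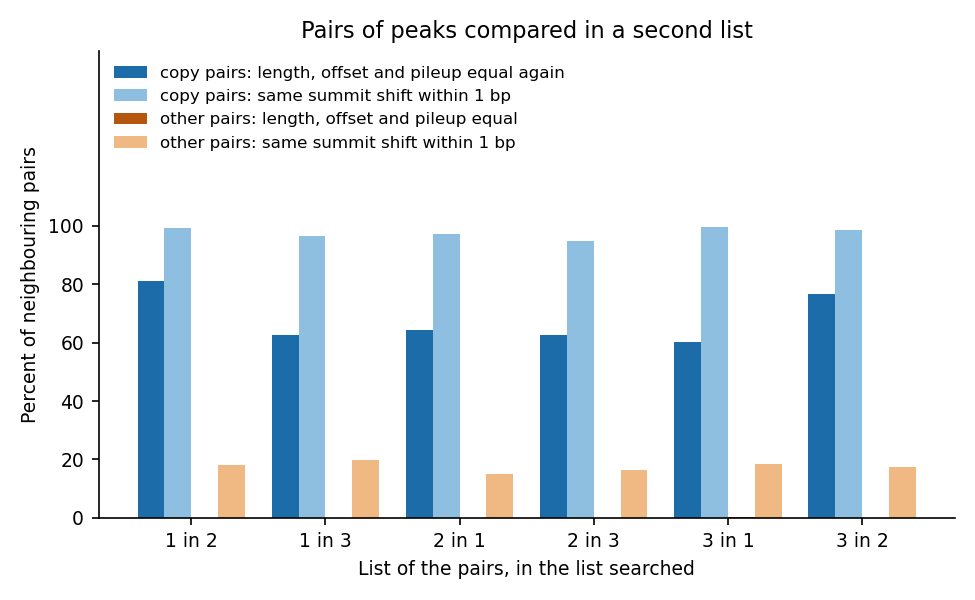
Percent of neighbouring pairs found in a second list whose peaks there are equal in the 3 values (dark bars) or have the same summit shift (light bars), for copy pairs in blue and pairs of other peaks in orange, for the 6 ordered pairs of lists. Copy pairs reach 60.4% to 81.2% and 94.7% to 99.5%, and the dark orange bars are at or near 0.

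Overlapping peaks of other lists had an identical copy of their own, at any pileup, in 75.6%, 66.6% and 77.4% of cases for copy peaks of lists 1, 2 and 3. For other peaks these were 5.39%, 3.11% and 4.81%. The difference was 68.8 percentage points ± 4.77 (SD, n = 3) and had the same sign in 3 of 3 lists. It is a description: the outcome rests on the same 3 values as the rule, and other peaks lack such a copy in their own list. Joined over the lists by position, the 1605 peaks lay at 1303 places in 367 groups. Of these groups, 288 with 1011 places had copy peaks in 1 list, 54 with 202 places in 2 lists and 25 with 90 places in all 3.

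The third question was how copy peaks compared in strength. Local input at copy peaks had medians of 30.5, 29.9 and 27.5 times the genome-wide level, and at other peaks 24.2, 23.1 and 22.8 times. It was higher in 3 of 3 lists, by 5.92 ± 1.10 (SD, n = 3). Median folds at copy peaks were 1.64, 1.66 and 1.72, against 1.82, 1.78 and 1.82 at other peaks. The fold was lower in 3 of 3 lists, by a mean of −0.135 ± 0.0430 (SD, n = 3). Median pileups, which the rule used, were 211, 205 and 207.57 for copy peaks and 190, 168 and 174.9 for other peaks. Copy peaks thus had the higher median pileup of the range, over a higher median input. Local input was solved from fold and pileup, and the pileup chose the members, so both differences are a description with no test.

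**Figure D5:**
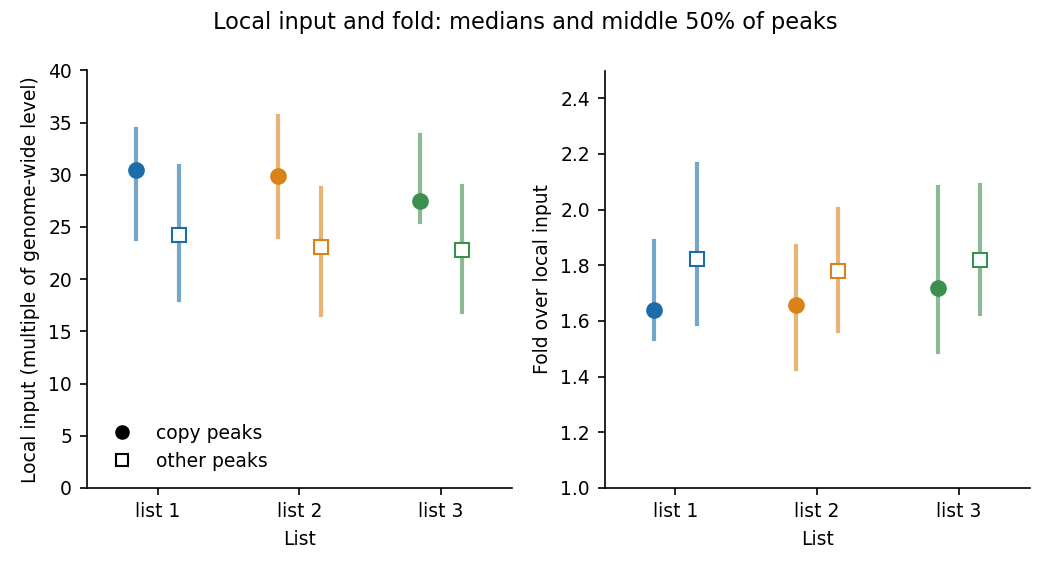
Median (symbol) and middle 50% of peaks (line) of local input, as a multiple of the genome-wide level, and of fold over local input, for copy peaks (filled circles) and other peaks (open squares) in each list. In each of the 3 lists the copy peaks have the higher median input and the lower median fold, and the lines overlap. The fold axis starts at 1.

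Copies of a set were mostly on different chromosomes. In 212 of 296, 56 of 83 and 73 of 109 sets every member was on a chromosome of its own, or 71.6%, 67.5% and 67.0%. Sets confined to 1 chromosome numbered 38, 14 and 16, a mean of 14.8% ± 2.02 (SD, n = 3 lists), and held 88, 33 and 34 peaks. Neighbouring members on the same chromosome were a median of 14.3, 14.8 and 16.9 Mb apart. A neighbour within 100 kb was found for 3.78%, 4.37% and 2.67% of copy peaks, a mean of 3.61% ± 0.859 (SD, n = 3). The closest neighbours started 1727 bp, 2377 bp and 6802 bp apart.

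The Y chromosome held 30 of 979, 17 of 252 and 19 of 374 copy peaks. These are 3.06% (Wilson interval 2.15 to 4.34), 6.75% (4.25 to 10.5) and 5.08% (3.28 to 7.80), against 1.03%, 1.49% and 1.12% of other peaks. Of the Y copy peaks, 28, 16 and 14 belonged to sets on the Y alone, 11, 6 and 6 sets in all. No test was made of this share, which was noticed among all chromosomes. The X chromosome held 8.38%, 9.13% and 6.95% of copy peaks and 8.17%, 8.77% and 8.19% of other peaks.

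Between neighbouring members of sets confined to the Y, spacings of 774882, 867251, 24404023 and 12790374 bp came back to the base in all 3 lists. Other such spacings were counted in 2 lists or in 1. Sets with a further member on another chromosome were left out of this count, though their Y spacings can recur too. An example is a list 3 set of 5 with a member in Fto on chromosome 8, whose 4 Y places were those of a list 1 set. A pair near the predicted genes Gm20815 and Gm21292 lay 774882 bp apart in each list, with pileups of 108, 110 and 116.28 and folds of 1.84, 1.61 and 1.68. A set near Gm28093, Gm21756, Gm21943 and Gm21724 repeated spacings of 24404023 bp and 867251 bp in each list, with pileups of 203, 190 and 183.55. A spacing of 12790374 bp came back in 5 sets over the 3 lists, near Gm21751 and Gm21918. One of these pairs had pileups of 161, 159 and 166.25 and folds of 2.15, 1.87 and 2.15.

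Among the windows with copies of a set within 100 kb, the one with the most copy peaks lay on chromosome 6 between Hrh1, a histamine receptor, and Atg7, an enzyme needed to form autophagosomes. The window chr6:114499275-114627370, 128 kb wide, held 31 peaks of list 1, of which 16 were copy peaks from 8 sets. Lists 2 and 3 had 9 and 4 peaks there, with 3 and 2 copy peaks. A set of 3 recurred in lists 1 and 2 with the same spacings, 2442 bp and 37058 bp, at pileups of 202 and 211 and folds of 1.72 and 1.66. A pair 24435 bp apart recurred in lists 1 and 3, at pileups of 216 and 195.08.

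Some close sets lay at gene families of near copies, such as Vmn2r35, a vomeronasal receptor gene for pheromones on chromosome 7. There 3 list 1 peaks of 529 bp followed each other every 4585 bp, and the fourth member of the set, near Vmn2r45, lay 790616 bp further on. All 4 had a pileup of 231 and a fold of 1.81 in list 1. At the same 4 places list 2 had a pileup of 242 and a fold of 1.66, and list 3 had 241.21 and 1.67, again equal at all 4, but just above the range. In the pair near Gm10302 and Vmn2r46, 269071 bp apart in lists 1 and 2, pileups were 207 and 163. The list 1 pair also overlapped list 3 peaks, equal to each other at a pileup of 202.77 and a fold of 1.47. The list 2 pair overlapped that of list 1 but no peak of list 3.

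Secretoglobin genes, which encode small secreted proteins, stood beside sets of equal spacing on the same chromosome. A list 1 pair near Scgb2b15 and Scgb2b17 and a list 1 pair near Scgb1b15 and Scgb1b17 both had a spacing of 226897 bp. The second pair recurred in list 3 with the same spacing, at pileups of 169 in list 1 and 162.41 in list 3 and folds of 1.93 and 1.88. On chromosome 8, a pair near Defa-ps8 and Gm15313, in the defensin gene cluster, lay 368354 bp apart in lists 1 and 2, at pileups of 178 and 173. A pair near Fundc1, a receptor for removal of mitochondria, had copies 4536 bp apart on the X chromosome, at a pileup of 231 and a fold of 2.02 in list 1. It was found whole in both other lists, at 242 and 241.21.

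Single pairs close together lay in or near further genes. Both copies lay inside Ahnak2 in list 1, 2040 bp apart at a pileup of 97 and a fold of 1.82, a pileup that 1 more set of list 1 shared, at a fold of 3.53, and no copy peak of that list fell below. Luzp2, a leucine zipper gene, had copies 3305 bp apart in list 1, and Cd2ap, an adaptor of the cytoskeleton, 6683 bp apart in list 2. Beside Cdh3, a cadherin, lists 1 and 3 each had a pair 6802 bp apart, at folds of 2.38 and 1.84. These were different pairs that did not overlap but had the same spacing. List 1 also had peaks at the places of the list 3 pair: the window held 4 list 1 peaks, of which 2 were copy peaks. Beside Gas8, a gene of motile cilia, list 1 had 2 sets with 5 copy peaks within 39.2 kb, and the other lists had no peak there.

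Some sets recurred together at a fixed distance. Counting 2 sets that stood at the same distance at 2 or more places, within 50 kb, there were 30 such pairs of sets in list 1, 1 in list 2 and 4 in list 3. They involved 38, 2 and 8 sets, or 12.8%, 2.41% and 7.34%. In list 1 a set of 12 and a set of 18 stood 1006 bp apart on 4 chromosomes, once inside Myo5b, a motor for vesicle transport. At 2 of these places a further set of 2 followed, 765 bp from the set of 18. Another such pair lay in Auts2, a gene of neuronal development, at 3703 bp: list 1 peaks with pileups of 216 and 173 and folds of 1.85 and 1.87. List 2 had peaks overlapping both, with pileups of 227 and 175 and starts 3387 bp apart. These distances run from start to start, and the peaks differed in length. They were 226 and 236 bp long in list 1 and 326 and 312 bp long in list 2. In a search within 8 kb for peaks of any list, 6 of the 16 places of the second largest list 2 set had a list 1 peak at exactly 5439 bp, from a list 1 set of 10 with a fold of 1.62. The set of 16 itself had no overlapping peak in list 1.

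The position of copy peaks relative to genes depended on how sets were counted. Inside protein-coding genes were 24.1%, 28.2% and 24.1% of copy peaks, 22.5%, 23.1% and 23.7% of other peaks, and 23.3%, 24.7% and 24.7% of all peaks. The difference of 2.37 percentage points ± 2.47 (SD, n = 3; exact permutation p = 0.25, adjusted p = 0.375) was smaller than its spread. It reversed to −4.16 points ± 1.34 (SD, n = 3, exact permutation p = 0.25) when each set counted once, by its first member. The first member was the one lowest by chromosome name, in text order, and then by start. Whether that choice made the reversal was not tested. Within 1 kb of a gene end lay 4, 3 and 1 copy peaks, or 0.409%, 1.19% and 0.267%, where all peaks gave 0.794%, 0.875% and 1.13%. Pseudogenes held 10, 2 and 9 copy peaks, or 1.02%, 0.794% and 2.41%, with 1.91%, 2.63% and 2.41% for all peaks. Counted once per set, the difference from other peaks at gene ends was −0.613 points ± 0.242 (SD, n = 3, exact permutation p = 0.25). It rests on 1 of 296, 0 of 83 and 0 of 109 first members, so it mostly mirrors the share of other peaks. With all members, both differences from other peaks were smaller than their SD over the lists, with exact permutation p of 0.75 and 0.5 and adjusted p of 0.75 and 0.6. None of the copy peaks overlapped the 32851 RefSeq promoter windows or the 1005 miRNA hairpins of GRCm38 that were compared. Of all peaks, only 5 of 7053, 0 of 2628 and 6 of 2827 overlapped a promoter window and none a hairpin, so this does not set copy peaks apart.

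Genes with a copy peak in the span or within 1 kb numbered 269 of 21775 protein-coding genes, 1.24%, and 1071 had any peak, 4.92%. The median span was 208 kb for genes with a copy peak, 138 kb for those with any peak and 17.2 kb for all genes. Of the 269 genes, 74 had a copy peak in at least 2 lists and 20 in all 3, not always at the same place. In Adgrb3, Nrg3 and Ap3b1 the copy peak of 1 list lay apart from those of the other lists. The share of genes with any peak that recur in this way is not given here. The 20 genes with a copy peak in all 3 lists include the 7 of the 14-place set, and Adamts19 and Chrm3, a muscarinic receptor. Chrm3 gave pileups of 216, 208 and 207.57 with folds of 1.89, 1.52 and 1.58, and 1 Adamts19 peak of each list, from another set than that of Chrm3, had the same pileup and fold. Cacna2d1, a calcium channel subunit, had copy peaks of 3 sets in list 1, of 1 in list 2 and of 2 in list 3. Kcnab1, a potassium channel subunit, had 1 copy peak in each list, at folds of 1.96, 1.90 and 2.17, in sets of 3.

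Mcm9, a helicase of DNA repair, and the claudin-like gene Cldn34c3 on the X chromosome shared copy sets in every list. Both held a list 1 peak of 549 bp with a pileup of 198 and a fold of 2.49. Both also held a list 2 peak with a pileup of 156 and a fold of 1.50, which overlapped no peak of list 1 or list 3. In list 3 both held peaks at 202.77 and 227.75 with folds of 2.34 and 2.08. The distances between these list 3 peaks of 324 and 361 bp were the same in both genes, 1793 bp from start to start.

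Counts in the lists of gene families are to be read beside the 1.24% of all protein-coding genes with a copy peak. Among 350 vomeronasal receptors 15 had a peak and 1, Vmn2r35, had a copy peak. Olfactory receptors had 1 of 1109 (Olfr631), zinc finger genes of the Zfp series 3 of 397 (Zfp277, Zfp442 and Zfp52), serpins 1 of 52 (Serpinb1c) and the Skint genes 1 of 11 (Skint6). The interferon-induced and Trim genes had 2 of 105, Trim14 and Trim30a. Predicted genes had 11 of 1321 and Rik clones 5 of 421. With 0 to 11 genes a list, no share is set apart from that of all genes here. No member of the Btbd35f, Mup, Speer, Obox, Ugt, defensin, secretoglobin, prolactin or Amy lists had a copy peak in its span. Protocadherin alpha genes were named 12 times by a list 1 set of 18, but the overlapping spans of the cluster put them all at 1 place.

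Of 45 genes of the cytokine receptor, JAK, RAS and ERK pathways, 4 had a peak and 2 a copy peak, 4.44%, beside 1.24% of all genes. Cbl, a ubiquitin ligase that ends kinase signalling, held chr9:44218796-44219145 of list 3, with a pileup of 227.75 and a fold of 2.08. That peak was 1 of the set of 19 spread over 12 chromosomes and had no counterpart in lists 1 and 2. Gab2, an adaptor of cytokine receptors, held chr7:97275832-97276053 of list 1, with a pileup of 192 and a fold of 1.59, in a set of 3. Each value is thus shared with places far from the gene, and the list holds too few such genes to say more than the count.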

How the data were processed

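YBX1 immunoprecipitates and inputs (3 each) were grouped and numbered by their titles, and peak lists were matched to them by list number. Trim Galore, MACS2 and the build GRCm38 are named, per the submitters' processing notes, for trimming, peak calling and the genome. The headers name MACS 2.1.1.20160309 and a q threshold of 0.01. The aligner and its handling of reads with several matches are not given in the sources used here. The deposited pileup is a signal in extended tags after scaling to the smaller library, per the file headers. The deposited fold is a ratio made by the authors, pileup over local input, and the −log10 q values are the authors' as well. These scores belong to the authors' peaks and exist for called peaks alone.

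Copy sets were formed with Python 3.11.15, pandas 2.3.3 and scipy 1.17.1. Local input was solved from fold and pileup. Differences were tested by two-sided exact sign-flip permutation over the 3 lists with Benjamini-Hochberg adjustment over 6 differences, of which those of fold and local input are printed without p because the pileup enters both. Shares have 95% Wilson intervals. Gene spans were those of RefSeq on GRCm38, without 394 entries starting below 3 Mb on chromosomes other than Y; a peak lay inside a gene when its midpoint did. Some single genes are not reported here. In simulated lists the grouping returned every planted copy. The copies were planted with equal values and grouped by those values, so this checks the code alone and says nothing about real copies. Named sets were the 5 largest per list, up to 15 sets found in all lists, sets at genes with a shared name stem, sets recurring together, close or single-chromosome sets, and members of fixed gene lists. The set members and gene lists were chosen with earlier results of these data known. Mirrored outlines, families by pileup and fold, summit shifts, the copies of overlapping peaks, and the close pairs named were added after the values were seen.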

Additional observations from a re-analysis of the deposited data

How the results depend on the processing

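Of 140 recomputed values, 114 kept their direction and moved by less than the spread between lists, 20 moved further and 6 reversed. Without pileup limits a list held a mean of 960 copy peaks, their share found in another list exceeded that of other peaks by 2.77 points, and 61.3% of pairs were equal again. With 1 bp of tolerance in length and offset, 90.4% shared a fold, 49.9% of pairs were equal again and overlapping peaks with a copy exceeded those of other peaks by 57.6 points. With a −log10 q of at least 5 the last 2 values were 72.2% and 73.9 points. Requiring an equal fold gave 100% by construction. With 1 member per set there were 162.7 peaks per list, and differences of −4.16 points inside genes, 0.242 inside pseudogenes and 61.8 for overlapping peaks with a copy. A window of 5 kb at gene ends gave 1.03 points, a reach of 1 Mb put a neighbour beside 7.80% of copy peaks, and against all other peaks the overlapping peaks differed by 57.9 points. Added after seeing the data, pileup and fold equal with any outline gave 1548 peaks per list, 7.98% of sets on 1 chromosome, 100% with an equal fold by construction, 19.2% of pairs equal again, −0.245 points inside genes and 26.4 points for overlapping peaks. Leaving out 1 replicate at a time gave 313 to 676.5 copy peaks per list, lowest without list 1, 61.5% to 72.7% of pairs equal again, and −0.431 to 0.132 points at gene ends. For the other values that moved or reversed the cause was not tested.

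With 1 member per set, sets on 1 chromosome, equal folds, pairs equal again and neighbours gave no value. No paired analysis was possible because each list already combines an immunoprecipitate with an input, and the inputs have no lists of their own. The smallest p that 3 lists allow is 0.25. Places below the authors' threshold have no value here, and a place not found in a list is not shown to lack signal there.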
